A study of Homo sapiens with 3 samples.

Results

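The S phase genes described here are 39 genes whose RNA is used as a standard signature of cells that are copying their DNA. They were chosen by symbol from a fixed list, and all 39 were found, each 1 time, among the 38606 genes measured. Their levels did not decide which cells were kept or how cells were grouped. UMIs, the molecular tags that mark single captured RNA molecules, were summed over these genes and given as a share of all UMIs of a cell, of a group of cells or of a library.

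The cells were HES3 Mixl1:GFP cells, a human embryonic stem cell line with a GFP reporter at the streak gene MIXL1. They were grown as micropatterned colonies, which are round colonies of fixed size, for 24 h in mTeSR Plus with 10 µM of the ROCK inhibitor Y-27632 at seeding, and then treated for 48 h. The BMP4 group received 50 ng/mL BMP4, a ligand of the TGF-beta family. The CHIR group received 6 µM CHIR99021, an inhibitor of GSK3 that switches on canonical WNT signalling, and the CHIR+Activin group received 3 µM CHIR99021 with 100 ng/mL Activin A, a ligand that acts through SMAD2 and SMAD3. About 10 colonies were pooled for each treatment and gave 1 library each of 10x Genomics single-cell RNA sequencing. With 1 library per treatment, from 1 cell line, no difference between treatments has a replicate check and none was tested, and every interval below covers counting error only. No untreated library was analysed here.

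S phase begins from origins that were licensed in G1, when CDC6 and its partners load the MCM helicase onto DNA. CDC45 and the GINS complex then turn the helicase on, polymerases copy both strands on the sliding clamp PCNA, and histone chaperones wrap the new DNA. Many of the genes for these steps are switched on together by E2F transcription factors at the end of G1 and are turned down again as the cell moves toward mitosis, and human embryonic stem cells are known for a short G1 and a large share of cells in S phase.

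Letters of the E2F type were looked for in the promoters of the members. Promoter sequences, from 250 bases before to 50 bases after the start site, came from RefSeq on GRCh38.p14, and 31 of the 39 genes matched. MCM4, MCM5, POLD3, WDR76, DSCC1, ATAD2, CCNE2 and E2F8 did not. 4 letter strings of the E2F type were searched on both strands: TTTCGCGC, TTTGGCGC, TTTCCCGC and TTTGGCGG. At least 1 of them stood in 16 of the 31 promoters (51.6%) and in 936 of 27305 promoters of all genes (3.43%). Matches to TTTGGCGC and TTTCGCGC on opposite strands can share bases, so promoters were counted and not matches. CCAAT, the box bound by NF-Y, stood in 22 of 31 (71.0%) against 35.7% of all promoters, and TTTGAA, the letters of the CHR element of mitotic genes, in 2 of 31 (6.45%) against 15.4%. A match is a description of letters and not a shown binding site.

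3 promoters with E2F letters and 1 without are printed because these genes carry the results below. CDC6 and DTL differed most along the G2 and mitosis share, in the mean over libraries, among genes with an entry, CLSPN differed most between libraries among them, and NASP had the most UMIs of all members. Each runs 5′ to 3′ on the strand of its gene, and capitals mark the E2F letters or, in CLSPN, their reverse complement. The windows are chr17:40287629-40287928 on the plus strand for CDC6, chr1:212035498-212035797 on the plus strand for DTL, chr1:35769929-35770228 on the minus strand for CLSPN, and chr1:45583791-45584090 on the plus strand for NASP.
CDC6: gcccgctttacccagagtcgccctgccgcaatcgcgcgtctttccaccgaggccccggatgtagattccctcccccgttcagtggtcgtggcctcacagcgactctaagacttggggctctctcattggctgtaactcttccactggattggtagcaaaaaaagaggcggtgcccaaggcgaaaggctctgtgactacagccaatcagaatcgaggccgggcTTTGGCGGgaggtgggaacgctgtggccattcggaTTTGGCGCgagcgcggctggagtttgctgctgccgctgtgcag
DTL: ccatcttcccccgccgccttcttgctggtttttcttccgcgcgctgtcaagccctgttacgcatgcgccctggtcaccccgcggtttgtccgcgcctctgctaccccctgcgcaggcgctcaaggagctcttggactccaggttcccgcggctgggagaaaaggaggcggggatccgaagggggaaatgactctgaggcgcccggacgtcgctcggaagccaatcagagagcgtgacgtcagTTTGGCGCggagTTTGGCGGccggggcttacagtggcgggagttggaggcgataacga
CLSPN: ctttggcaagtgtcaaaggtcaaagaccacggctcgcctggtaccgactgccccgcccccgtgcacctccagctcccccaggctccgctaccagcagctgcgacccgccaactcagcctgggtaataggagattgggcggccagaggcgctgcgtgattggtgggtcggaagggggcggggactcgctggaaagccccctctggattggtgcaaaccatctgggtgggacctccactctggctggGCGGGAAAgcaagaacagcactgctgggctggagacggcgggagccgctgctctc
NASP: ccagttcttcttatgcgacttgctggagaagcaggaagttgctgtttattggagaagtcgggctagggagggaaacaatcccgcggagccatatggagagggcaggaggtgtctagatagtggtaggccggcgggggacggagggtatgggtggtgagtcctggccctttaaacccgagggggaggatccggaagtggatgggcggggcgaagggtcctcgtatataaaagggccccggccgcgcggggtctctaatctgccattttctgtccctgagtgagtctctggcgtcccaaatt
Counted from the start site, the first bases of the CDC6 matches lie at -28 and 8, those of the DTL matches at -8 and 5, and that of the CLSPN match at -5. NASP holds CCAAT on the opposite strand, with its first base at -203, and none of the 4 E2F strings.

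The kept cells numbered 9401 for BMP4, 7084 for CHIR and 6876 for CHIR+Activin, with 137174566, 185215378 and 130592423 UMIs. Median depth was lowest in BMP4, at 12623 UMIs per cell, against 22919.5 in CHIR and 17202 in CHIR+Activin, and medians of mitochondrial UMIs lay between 4.08% and 4.69%. Pairs of libraries shared 8 to 12 cell barcodes. Epiblast markers were present in every library, with POU5F1 at 896 to 1070 CPM (UMIs per 1000000 UMIs of a library), while the 10 mesoderm markers summed to 632 CPM in BMP4, 8.38 in CHIR and 24.9 in CHIR+Activin. The fibroblast and blood marker list summed to 11.2 to 14.2 CPM, nearly all of it COL1A1. The summed stress list, which holds genes of the integrated stress response, was 2.12-fold higher in CHIR than in BMP4 and 1.58-fold higher in CHIR+Activin, and its part in the differences below was not tested beyond the values given.

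The S phase genes together made up nearly the same share of RNA under all 3 treatments. They held 39.87 of every 10000 UMIs in BMP4 (95% interval 39.76 to 39.97), 38.44 in CHIR (38.35 to 38.53) and 38.94 in CHIR+Activin (38.83 to 39.04). BMP4, the shallowest library, was the highest and CHIR, the deepest, the lowest, and no pair of intervals overlapped. These intervals do not cover the difference in depth, which is described below. Relative to BMP4 the share differed by -3.57% in CHIR and by -2.33% in CHIR+Activin, and CHIR+Activin lay 1.28% above CHIR. As log2 ratios these are -0.05, -0.03 and 0.02, and with TMM scaling they were -0.10, -0.01 and 0.08. In CPM the difference between CHIR+Activin and CHIR rests on NASP: without it the log2 ratio was -0.001. The TMM value was not recomputed without NASP. For comparison, the 54 genes of the G2 and mitosis list differed from BMP4 by -11.02% in CHIR and -8.42% in CHIR+Activin.

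Single members differed little between libraries as well. Of the 39, 38 reached 10 CPM in at least 1 library of each pair and were compared; CCNE2 did not. A gene at least 25% higher or at least 20% lower in one library of a pair was counted as apart, which is the same fold in both directions. Between CHIR and BMP4, 0 members were at least 25% higher, where 18.4% of all 10122 genes compared were, and 3 (E2F8, CLSPN and UHRF1) were at least 20% lower, against 12.0% of all genes. None was 2-fold apart, against 5.94%. Between CHIR+Activin and BMP4, 0 were higher (12.0% of 9968 genes) and 1 was lower (11.0%), with none 2-fold apart (4.72%). Between CHIR+Activin and CHIR, 0 were higher and 0 lower, against 1.43% and 3.23% of 9821 genes, and 0 were 2-fold apart, against 0.204%. The median log2 ratio of members was -0.07, -0.06 and -0.01 in these pairs, against 0.03, -0.01 and -0.05 over all genes. The first 2 comparisons share the BMP4 library.

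**Figure D1:**
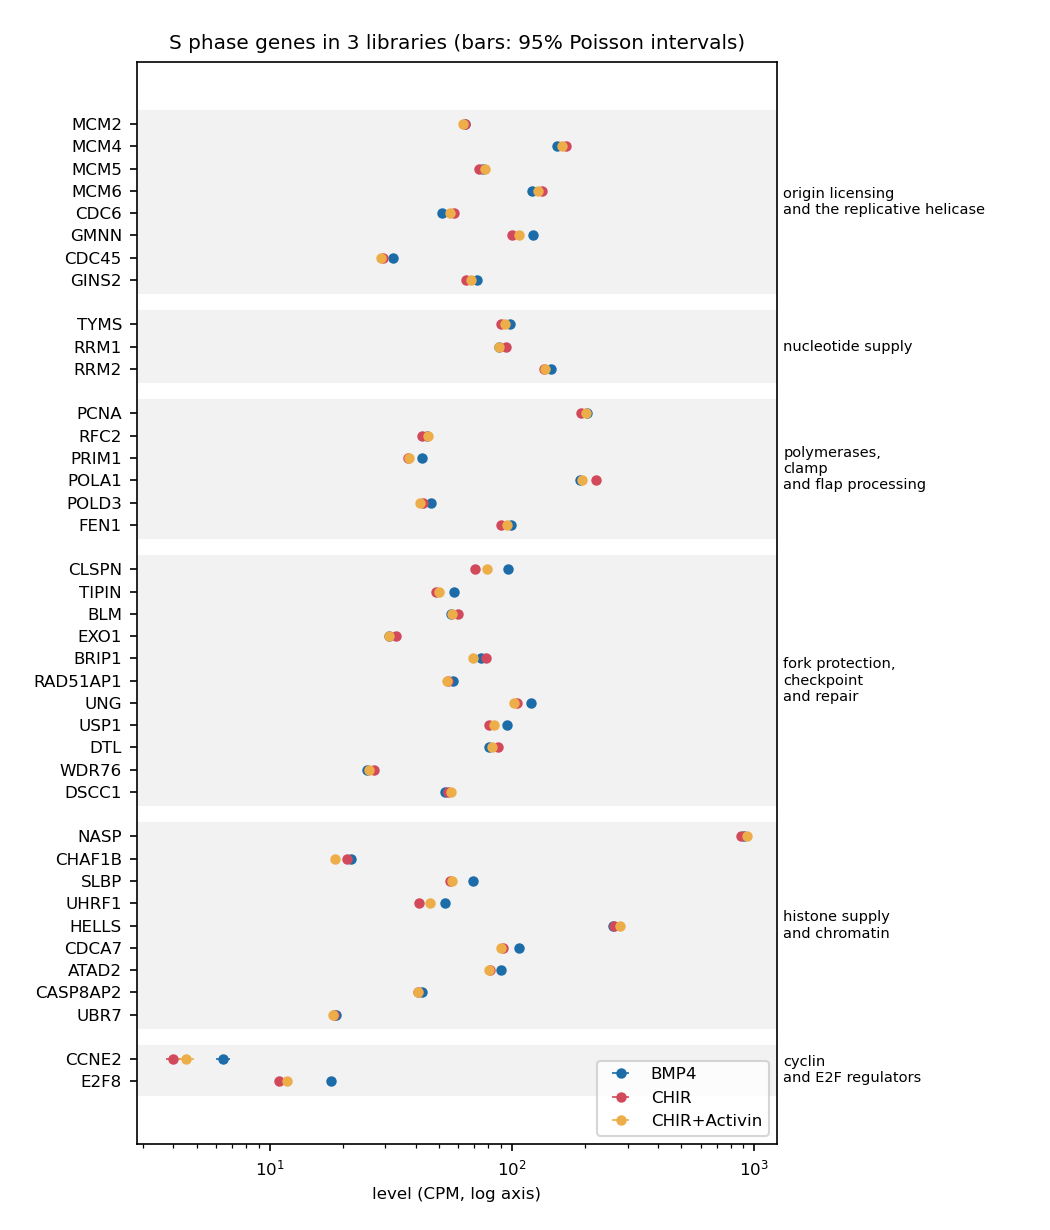
Level of each of the 39 S phase genes (rows, grouped by role) in the 3 libraries, in CPM on a log axis, with 95% Poisson intervals that are mostly narrower than the points. The 3 points of a gene lie close together for most members, and stand apart for E2F8, CCNE2, CLSPN and UHRF1, whose BMP4 point lies to the right.

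Among the genes of origin licensing and the helicase, 3 of the 4 MCM subunits and CDC6 lay level with or slightly above BMP4 in CHIR, and the factors that switch the helicase on lay slightly below. MCM4, which had the most UMIs of this role, was at 154 CPM in BMP4, 167 in CHIR and 160 in CHIR+Activin. MCM6 was at 121, 133 and 128 CPM in the same order, and MCM2 and MCM5 stayed between 62.6 and 77.1 CPM in all 3. CDC6, the loader of the helicase, was lowest in BMP4 as well, at 51.4 CPM against 57.7 and 55.7, log2 ratios to BMP4 of 0.17 (0.12 to 0.21) and 0.12 (0.07 to 0.16). GMNN, which encodes geminin, the protein that blocks relicensing, went the other way. It was at 122 CPM in BMP4, 99.6 in CHIR and 107 in CHIR+Activin, log2 ratios of -0.29 and -0.18. CDC45 (32.3, 29.3 and 28.9 CPM) and the GINS subunit GINS2 (71.7, 64.6 and 67.6 CPM) were highest in BMP4. The 8 genes summed to 6.92, 6.88 and 6.87 per 10000 UMIs, with intervals that overlap.

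The enzymes of nucleotide supply varied less. RRM2, the regulated subunit of ribonucleotide reductase, was at 144 CPM in BMP4, 135 in CHIR and 137 in CHIR+Activin, and its partner RRM1 was at 88.6, 94.1 and 88.4 CPM. TYMS, which makes thymidylate, was at 98.5, 90.2 and 93.4 CPM. BMP4 was the highest library for RRM2 and TYMS and CHIR for RRM1. TYMS overlaps ENOSF1 on the other strand, and no source used here gives the strand setting of the counting, so reads of the overlap cannot be assigned.

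Of the polymerases, POLA1 had the largest ratio above 0 of all members. This catalytic subunit of the polymerase that starts each strand was at 190 CPM in BMP4, 223 in CHIR and 195 in CHIR+Activin, a log2 ratio of CHIR over BMP4 of 0.23 (0.20 to 0.25). CHIR alone stood high, and CHIR+Activin was lower than CHIR by a log2 ratio of -0.19 (-0.21 to -0.17). PRIM1, the primase that works in the same complex, was instead highest in BMP4, at 42.5 CPM against 37.2 and 37.6. PCNA, the clamp, was at 203, 192 and 202 CPM, and the clamp loader subunit RFC2 at 44.8, 42.6 and 45.0 CPM. The flap nuclease FEN1, which trims Okazaki fragments, was at 98.6, 90.1 and 95.5 CPM, and POLD3, a subunit of the lagging-strand polymerase, at 46.4, 42.8 and 41.9 CPM. Only POLA1 among these 6 lay above BMP4 by a log2 ratio over 0.1 in either comparison, a single case chosen after its values were seen.

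Fork protection and repair held one of the largest differences. CLSPN encodes claspin, the adaptor through which ATR activates CHK1 at a stalled fork. It was at 96.0 CPM in BMP4, 70.1 in CHIR and 78.5 in CHIR+Activin, log2 ratios to BMP4 of -0.45 (-0.49 to -0.42) and -0.29 (-0.33 to -0.25). BMP4 was the high library, and CHIR+Activin exceeded CHIR by a log2 ratio of 0.16 (0.13 to 0.20). TIPIN, part of the fork protection complex that claspin works with, was at 57.6, 48.5 and 50.1 CPM. The deubiquitinase USP1 was at 95.3, 80.6 and 84.1 CPM and the uracil glycosylase UNG at 119, 105 and 102 CPM. These 3 were also highest in BMP4, with CHIR and CHIR+Activin less than 20% below it.

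Other genes of that role did not share this order. DTL, the adaptor through which the CRL4 ubiquitin ligase destroys CDT1 in S phase, was at 80.7 CPM in BMP4, 87.5 in CHIR and 82.6 in CHIR+Activin. The helicase BLM (56.0, 59.8 and 56.4 CPM), the nuclease EXO1 (31.0, 33.3 and 31.2 CPM) and WDR76 (25.2, 27.0 and 25.8 CPM) likewise were highest in CHIR. BRIP1, a helicase that binds BRCA1, was at 74.2, 78.0 and 68.7 CPM, and CHIR+Activin lay under CHIR by a log2 ratio of -0.18 (-0.22 to -0.14). RAD51AP1, which acts in repair by homologous recombination, was at 57.2, 54.3 and 53.8 CPM. DSCC1, a subunit of a clamp loader for sister chromatid cohesion, was at 53.0, 54.5 and 56.3 CPM.

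Histone supply held both the most abundant member and another gene past this limit. NASP, a chaperone that stores histones H3 and H4, was at 905 CPM in BMP4, 884 in CHIR and 935 in CHIR+Activin, and so weighs most in every sum. UHRF1, which brings the maintenance DNA methyltransferase to new DNA, was at 52.8, 41.2 and 45.7 CPM, log2 ratios to BMP4 of -0.36 (-0.41 to -0.31) and -0.21. Here too BMP4 was the high library, and CHIR+Activin lay above CHIR by a log2 ratio of 0.15. SLBP, which binds the stem-loop of replication-dependent histone mRNAs, was at 69.1, 55.7 and 56.8 CPM, log2 ratios of -0.31 (-0.35 to -0.27) and -0.28 (-0.33 to -0.24). CDCA7, an activator of the remodeller HELLS, was at 107, 91.5 and 90.2 CPM, and HELLS itself at 260, 263 and 278 CPM. The first of this pair was highest in BMP4 and the second in CHIR+Activin. CHAF1B, a subunit of the chromatin assembly factor, was at 21.6, 20.8 and 18.6 CPM, lowest in CHIR+Activin. The ATPase ATAD2 was at 90.4, 81.2 and 80.1 CPM. CASP8AP2, needed for histone gene expression, was at 42.5, 41.0 and 40.8 CPM, and UBR7, a ligase for histone H2B, at 18.7, 18.5 and 18.2 CPM, so both hardly moved.

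The cyclin and E2F regulators had the lowest ratios to BMP4 of all roles. E2F8, an atypical E2F that represses E2F targets late in S phase, was at 18.0 CPM in BMP4, 11.0 in CHIR and 11.8 in CHIR+Activin. Its log2 ratios to BMP4 were -0.71 (-0.80 to -0.63) and -0.61 (-0.70 to -0.52), which are 1.64-fold and 1.52-fold lower. BMP4 stood apart and the other two libraries lay close, with a log2 ratio between them of 0.11 (0.01 to 0.20). CCNE2, the cyclin E that drives entry into S phase, was at 6.40, 4.01 and 4.50 CPM, from 878, 742 and 588 UMIs. Its log2 ratios to BMP4 were -0.68 (CHIR) and -0.51 (CHIR+Activin), under the level at which genes were compared.

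**Figure D2:**
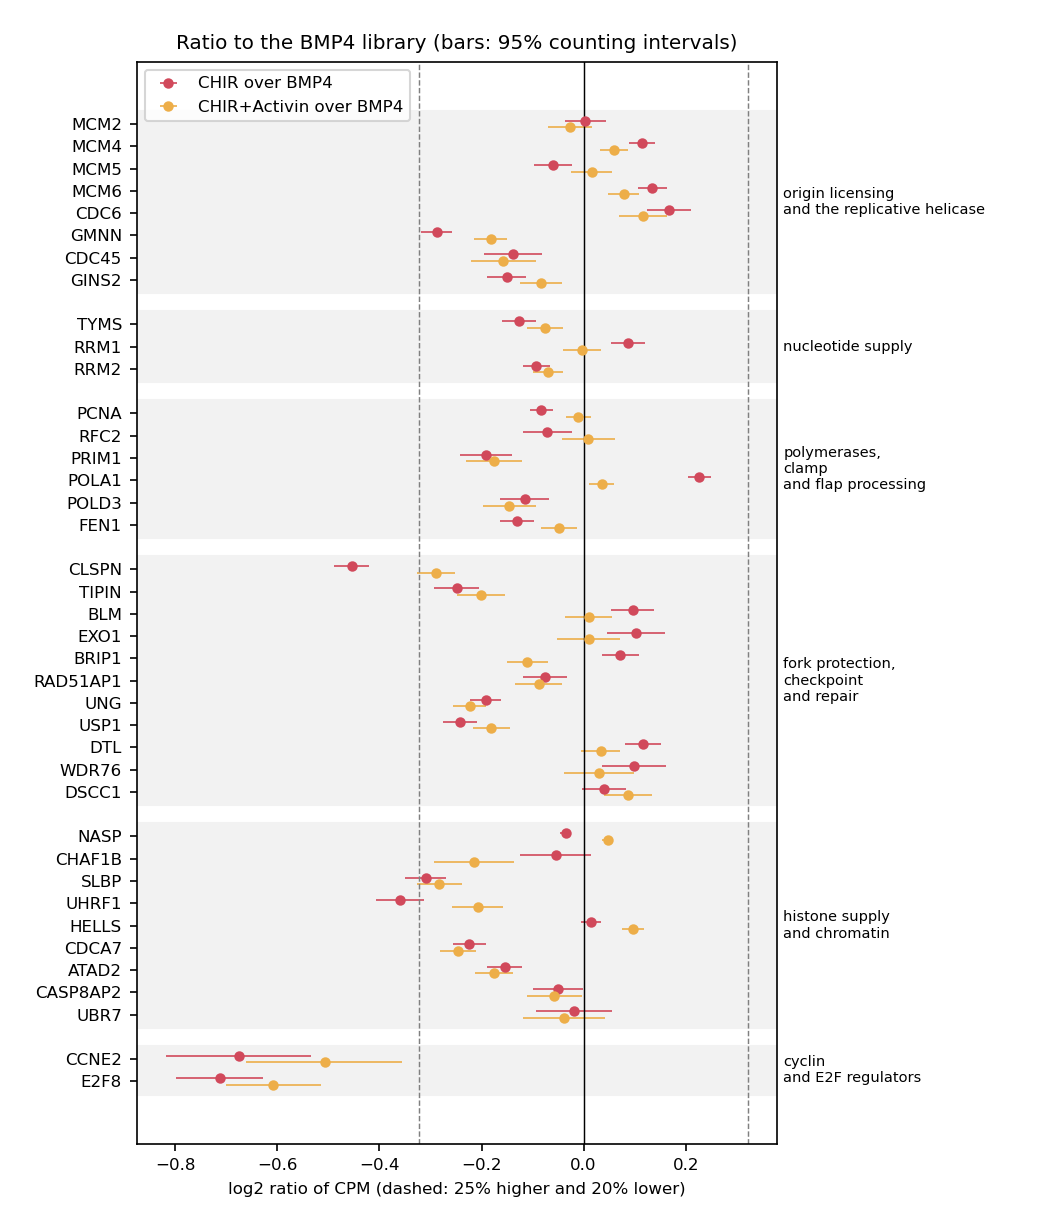
Log2 ratio of CHIR (red) and CHIR+Activin (yellow) to BMP4 for each S phase gene, grouped by role, with 95% counting intervals and dashed lines at 25% higher and 20% lower. Most points lie between the lines, E2F8 lies at -0.71 and -0.61, and POLA1 in CHIR reaches 0.23. Both sets of points share the BMP4 library.

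As sums, the other replication genes differed from BMP4 by 0.24% in CHIR and -2.72% in CHIR+Activin, and the G1 to S regulators by -3.89% and -6.67%. Of 49 other replication genes 48 were compared between CHIR and BMP4, where 4 were at least 25% higher and 3 at least 20% lower; between CHIR+Activin and BMP4, 4 were higher and 2 lower. CDT1, which loads MCM together with CDC6, was at 30.0 CPM in BMP4, 42.7 in CHIR and 38.8 in CHIR+Activin, and the histone chaperone ASF1A, with the lowest ratios, at 55.4, 33.5 and 39.7 CPM. TK1, which salvages thymidine, was at 42.9, 31.0 and 34.4 CPM, and DBF4, which activates the origin kinase CDC7, at 124, 91.8 and 90.7 CPM. CDT1 was thus lowest in BMP4, and ASF1A, TK1 and DBF4 highest there. In CHIR+Activin against CHIR, 0 of the 48 were higher and 0 lower.

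Of 27 regulators of the step from G1 to S, 23 were compared with BMP4. In CHIR 1 was higher and 1 lower, and in CHIR+Activin 0 were higher and 3 lower. CCNE1, the other cyclin E, was at 23.9 CPM in BMP4, 30.3 in CHIR and 29.1 in CHIR+Activin, the opposite order of CCNE2. MYCN had the lowest ratio, at 16.4, 7.79 and 8.97 CPM, and CCND2, a D-type cyclin, was at 217, 195 and 158 CPM. Between CHIR+Activin and CHIR, 21 were compared, with 0 higher and 0 lower. On the G2 and mitosis list, all 54 genes were compared. In CHIR against BMP4, 2 were higher and 8 lower, in CHIR+Activin against BMP4, 1 was higher and 5 lower, and in CHIR+Activin against CHIR 1 was higher and 0 lower. UBE2C, the E2 enzyme of the anaphase-promoting complex, was at 373 CPM in BMP4 and 269 in CHIR, while the checkpoint kinase BUB1 was at 80.1 and 115 CPM.

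The share of S phase UMIs varied far more between cells of a library than between libraries. The median cell held 39.9 S phase UMIs per 10000 in BMP4, 38.4 in CHIR and 38.7 in CHIR+Activin. The 10th and 90th percentiles were 28.2 and 55.2 in BMP4, 27.4 and 51.4 in CHIR, and 28.3 and 51.9 in CHIR+Activin. No kept cell lacked UMIs of all 39 genes. To compare cells at equal depth, each cell was thinned at random to 10000 UMIs, which left out 2360, 192 and 333 shallower cells. Medians were then 39, 38 and 39 UMIs. The SD over cells was 10.7, 10.3 and 9.89 UMIs, and counting alone at those means would give 6.33, 6.23 and 6.28. The histogram was a single peak in each library, with no gap between cells of low and high share.

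**Figure D3:**
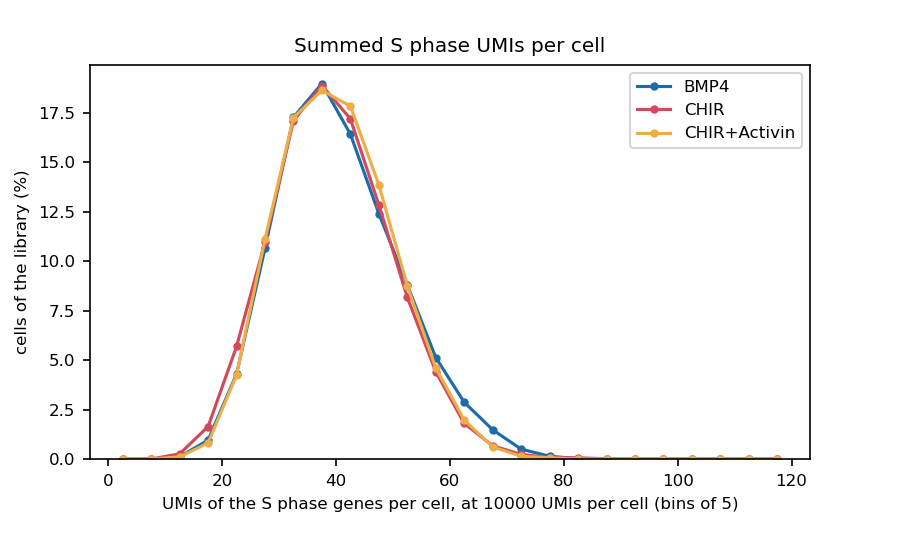
Number of UMIs of the 39 S phase genes per cell after thinning to 10000 UMIs (x axis, bins of 5) against the percent of cells of each library (y axis). All 3 libraries form 1 broad peak with medians of 38 to 39 UMIs, and BMP4 has slightly more cells above 60.

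Depth moved with this share. In 4 equal groups of BMP4 cells, from the shallowest to the deepest, the summed share was 44.2, 43.7, 38.3 and 37.6 per 10000 UMIs. In CHIR it was 41.2, 40.0, 36.8 and 37.9, and in CHIR+Activin 41.6, 41.7, 37.0 and 37.7. The shallower groups were the higher ones in every library. The marker groups below differ in depth and are therefore also given within these depth groups. The libraries differ in depth too, and at similar depth their order varied. The BMP4 group with a median of 14389.5 UMIs held 38.3 per 10000. The CHIR group at 14939 UMIs held 41.2 and the CHIR+Activin group at 15382 UMIs 41.7. Conversely, the BMP4 group at 11264 UMIs held 43.7, against 41.6 in the CHIR+Activin group at 11930 UMIs. The part of depth in the library differences was not tested.

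Along the G2 and mitosis share the S phase genes differed most. Cells of each library were ranked by the summed UMIs of the 54 G2 and mitosis genes, none of them a member, and split into lower, middle and upper groups of equal size. The summed S phase share was 45.5, 40.2 and 34.3 per 10000 in BMP4, 41.9, 40.7 and 34.0 in CHIR, and 43.2, 41.1 and 34.1 in CHIR+Activin. It was lowest in the upper group of every library. There the intervals of the 3 libraries overlapped (34.0 to 34.5, 33.8 to 34.2 and 33.8 to 34.3), whereas in the lower group BMP4 stood highest. Groups of the same name are not matched between libraries, since each library was split by itself. Their G2 and mitosis shares were 50.0, 42.3 and 43.6 per 10000 in the lower groups of BMP4, CHIR and CHIR+Activin. In the upper groups they were 95.9, 84.7 and 86.7. Median depth before thinning was higher in the upper group of each library. It went from 12825 to 15373 UMIs (BMP4), 19788 to 26649 (CHIR) and 15563 to 20245 (CHIR+Activin), and its part in the difference was not tested beyond the thinning.

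At least 20% lower in the upper than in the lower group were 28 of 38 members in BMP4, 21 in CHIR and 25 in CHIR+Activin, against 5.66%, 4.30% and 4.92% of all genes compared. None was 25% higher in any library, against 4.80%, 6.27% and 6.99%. The members' median log2 ratio was -0.46, -0.35 and -0.39, and that of all genes -0.01, 0.02 and 0.01. Counting CCNE2, which lay under the level compared, 20 of the 39 were past this limit in all 3 libraries. Of the same 39, 21 had their highest level in the lower group in all 3. No matching share of all genes was computed beside these counts of members. Other replication genes as a sum changed less, from 43.0 to 38.1 per 10000 (BMP4), 42.1 to 38.4 (CHIR) and 41.1 to 37.1 (CHIR+Activin).

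CCNE2, WDR76, CDC6 and DTL had the lowest ratios of upper to lower group, averaged over the libraries. CCNE2 was at 9.76, 6.48 and 2.17 CPM in the lower, middle and upper groups of BMP4, 5.44, 5.57 and 2.09 in CHIR, and 6.37, 6.05 and 2.29 in CHIR+Activin. CDC6 was at 68.0, 51.6 and 33.1 CPM in BMP4, 69.4, 64.4 and 40.7 in CHIR, and 69.4, 61.7 and 41.5 in CHIR+Activin. Both were lowest in the upper group of every library. DTL, whose promoter also holds 2 E2F strings, was at 99.9, 80.1 and 47.6 CPM in BMP4, 100.4, 105.4 and 61.3 in CHIR, and 94.7, 98.2 and 62.4 in CHIR+Activin. WDR76 had the lowest ratio among the 38 in BMP4 and CHIR, with log2 values of -1.22 and -0.83, and in CHIR+Activin it was at -0.71 after CDC6 at -0.74. FEN1 followed in CHIR+Activin, at -0.65 (-0.74 to -0.56).

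Other members differed less along this ranking, and those named here were not 20% lower in any library. CDCA7 was at 106, 107 and 105 CPM in BMP4, with log2 ratios of upper to lower of -0.02, 0.02 and -0.12 in BMP4, CHIR and CHIR+Activin. PRIM1 was at -0.28, 0.05 and -0.03, TYMS at -0.15, -0.06 and -0.08, and GMNN at -0.21, 0.05 and -0.20. In BMP4 the intervals lay below 0 for PRIM1 (-0.41 to -0.15) and GMNN (-0.29 to -0.14). RAD51AP1 was at -0.11, -0.14 and -0.15 and RRM1 at -0.17, -0.13 and -0.11. NASP, the most abundant member, was at -0.17, -0.11 and -0.17. E2F8 differed most between libraries, and along the ranking within them its log2 ratios were -0.22, -0.05 and -0.17. It was at 20.2, 19.2 and 17.3 CPM in BMP4, 10.5, 10.7 and 10.1 in CHIR, and 11.8, 11.4 and 10.5 in CHIR+Activin, so BMP4 was the high library in all 3 groups. For genes with E2F letters the median of the ratios averaged over libraries was -0.45 (16 genes, from -0.85 to -0.04), and for those without -0.33 (15 genes, from -0.62 to -0.08), with ranges that overlap almost fully.

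**Figure D4:**
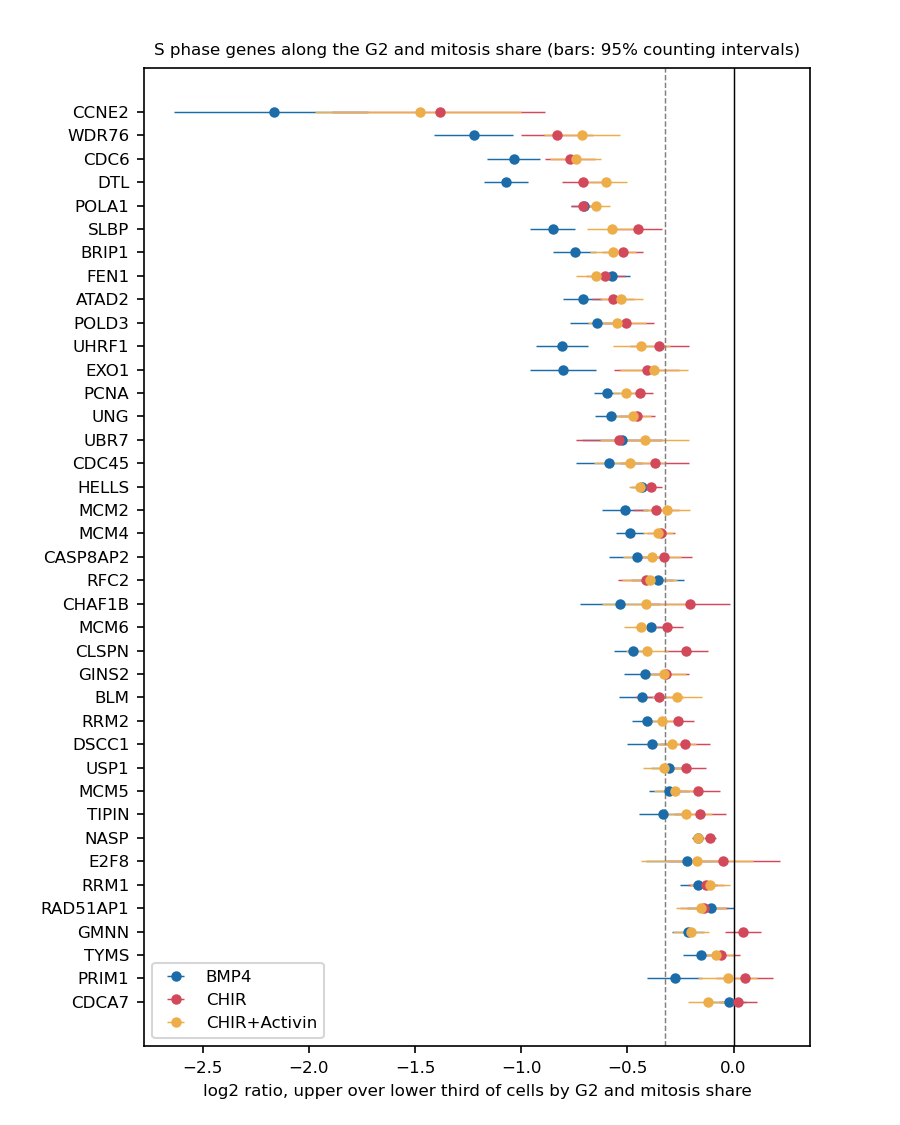
Log2 ratio of each S phase gene between the upper and the lower group of cells by G2 and mitosis share (x axis) in each library, with 95% counting intervals, ordered by the mean of the 3 ratios. A dashed line marks 20% lower. CCNE2, WDR76, CDC6 and DTL lie farthest to the left, and CDCA7, PRIM1 and TYMS have the means nearest 0.

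Across thinned cells each member was also compared with the sum of the other 38. Pearson correlations had a median of 0.15 in BMP4 (7041 cells), 0.14 in CHIR (6892) and 0.13 in CHIR+Activin (6543). They are descriptions across cells of 1 library, with sparse counts and no p. DTL had the highest, 0.30, 0.29 and 0.28, and POLA1 was at 0.28, 0.24 and 0.23. TYMS had the lowest average, at 0.08, 0.00 and 0.01. The summed members correlated with the summed other replication genes at 0.44, 0.44 and 0.40, and with the summed G2 and mitosis genes at -0.43, -0.35 and -0.41. The signs were the same in every library. They are no test of the S phase label, because the lists were chosen with earlier results of these data known. Among 8971 genes outside every list, those most alike were ranked by their lowest correlation over the libraries. NCL, which encodes nucleolin, came first at 0.35, 0.35 and 0.27. It was followed by CCDC144NL-AS1 (0.32, 0.23 and 0.25), PNN, MTAP, the histone methyltransferase EZH2 (0.22, 0.21 and 0.20), the linker histone H1-3, FIRRE, CCDC144NL, FAM111B and the splicing factor SRSF7. Reads of CCDC144NL and its antisense gene cannot be told apart where the strand setting is unknown.

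Cells were next grouped by UMIs of lineage genes: TFAP2A (amnion and surface ectoderm), SOX17 with TFAP2C (germ cell precursors), MESP1 (early mesoderm), TBXT (primitive streak) and SOX2 (epiblast). The groups overlap, since 88.9% of MESP1-positive cells of BMP4 also held a TBXT UMI and 54.5% of SOX17 and TFAP2C double-positive cells a TFAP2A UMI. In BMP4 they held 1928, 811, 5590, 7018 and 1572 cells. TFAP2A-positive cells were 35 in CHIR and 22 in CHIR+Activin, and double-positive cells 1 and 15, too few to describe. A UMI can also come from free RNA, but the level of free marker RNA was not computed. Of SOX2-positive BMP4 cells 13.9% held a TFAP2A UMI, against 20.5% of all BMP4 cells, at median depths of 15903 and 12623 UMIs. The source of this overlap was not tested.

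In BMP4 the S phase share was lower in TFAP2A-positive, double-positive and SOX2-positive cells than in the cells outside each group, and slightly higher in MESP1-positive and TBXT-positive cells. TFAP2A-positive cells held 37.2 per 10000 UMIs against 40.7 in the rest, a log2 ratio of -0.13 (-0.14 to -0.12). Double-positive cells held 36.4 against 40.3, a log2 ratio of -0.15 (-0.16 to -0.13), and SOX2-positive cells 37.8 against 40.4, -0.10 (-0.11 to -0.09). MESP1-positive cells held 40.2 against 39.3 and TBXT-positive cells 40.0 against 39.4, log2 ratios of 0.03 and 0.02. The quartiles over cells overlapped widely in every case, from 30.8 to 45.2 in TFAP2A-positive and 33.9 to 48.4 in MESP1-positive cells.

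These groups were deeper than the rest of their library, with median UMIs of 14811.5 against 12301 for TFAP2A, 16863 against 12422.5 for the double-positive cells, 15903 against 12242 for SOX2, 12953.5 against 12172 for MESP1 and 13205 against 11036 for TBXT. Within the 4 depth groups the log2 ratio was -0.14 to -0.06 for TFAP2A, -0.15 to -0.09 for the double-positive cells, 0.02 to 0.09 for MESP1 and 0.05 to 0.09 for TBXT. For SOX2 it was -0.06 to 0.00, and the mean over depth groups was -0.04. Among cells in 1 marker group only, the log2 ratio was -0.29 for TFAP2A, -0.01 for the double-positive cells, -0.02 for SOX2, 0.16 for MESP1 and 0.06 for TBXT. Such cells fall in no other marker group, while the cells they were set against may, and depth was not matched. With at least 2 UMIs of TBXT its ratio was -0.01.

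In CHIR the log2 ratios to the rest were -0.07 for 131 MESP1-positive cells, -0.03 for 3859 TBXT-positive cells and -0.02 for 4536 SOX2-positive cells. In CHIR+Activin they were 0.00 for 259 MESP1-positive, -0.03 for 3148 TBXT-positive and -0.02 for 4257 SOX2-positive cells. The TBXT and SOX2 ratios changed sign in the mean over depth groups, giving 0.00 and 0.01 (CHIR) and 0.00 and 0.00 (CHIR+Activin). Both groups were deeper than the rest there too, for TBXT 25987 against 19985 UMIs in CHIR and 19010.5 against 15810 in CHIR+Activin. MESP1-positive cells of CHIR were deeper as well, at 31390 against 22824 UMIs, and were too few for a mean over depth groups.

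**Figure D5:**
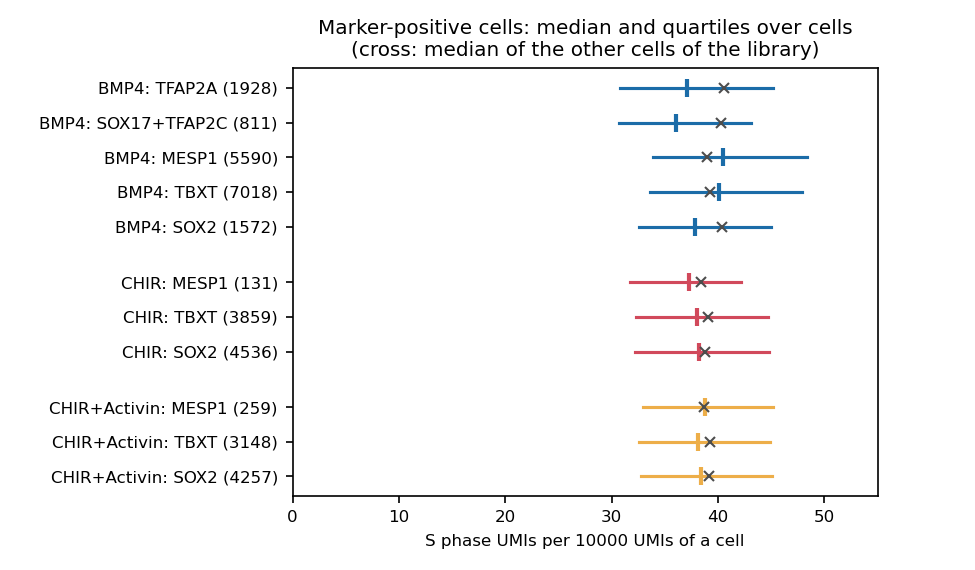
S phase UMIs per 10000 UMIs of a cell in marker-positive cells of each library, with the number of cells in brackets. The vertical mark is the median, the line spans the quartiles over cells, and the cross is the median of the other cells of that library. Medians of all groups lie between 36.1 and 40.5, inside each other's quartiles.

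Few single members passed these limits between marker groups, and E2F8 was among them in every BMP4 group. In TFAP2A-positive cells of BMP4, 0 of 38 were at least 25% higher (8.39% of all genes) and 1 was at least 20% lower (9.10%): E2F8, at 15.1 CPM against 18.9. PRIM1 (36.7 against 44.4 CPM) and MCM4 (134 against 161 CPM) had the next lowest ratios, -0.27 each, and SLBP (77.1 against 66.4 CPM), ATAD2 and CDCA7 the highest, 0.22, 0.13 and 0.09. In double-positive cells 1 was higher (10.3%) and 1 lower (12.3%). The higher one was CDCA7, at 136 CPM against 103, a log2 ratio of 0.40 (0.33 to 0.47), and the lower one E2F8, at 14.0 against 18.5. There PRIM1 and NASP followed at -0.28 and -0.27, and SLBP and CDC45 lay above the rest at 0.17 and 0.14.

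The MESP1-positive and TBXT-positive groups of BMP4 had E2F8 on the other side. These groups are not separate cases, since 88.9% of the MESP1-positive cells were also TBXT-positive. In MESP1-positive cells 1 member was higher (7.15%) and 0 were lower (14.2%), and in TBXT-positive cells 1 was higher (5.71%) and 0 lower (12.2%). Both times it was E2F8, at 20.4 CPM against 13.9 (log2 ratio 0.55, 0.43 to 0.68) and 19.0 against 14.3 (0.41, 0.26 to 0.56). UHRF1 and CLSPN came next, with log2 ratios of 0.28 and 0.20 in MESP1-positive and 0.21 and 0.19 in TBXT-positive cells. CASP8AP2 and POLA1 were lowest in both groups, at -0.22 and -0.18 with MESP1 and -0.20 and -0.20 with TBXT. BRIP1 had the next lowest ratio with MESP1, at -0.16, and HELLS with TBXT, at -0.17.

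SOX2-positive cells of BMP4 had the most members past these limits: 0 were higher (10.2%) and 5 were lower (10.5%). E2F8 was at 12.7 CPM against 19.4 in the other cells (-0.61, -0.77 to -0.45) and SLBP at 55.1 against 72.8 (-0.40, -0.48 to -0.32). UHRF1 was at 42.3 against 55.6 CPM (-0.39), ATAD2 at 74.9 against 94.5 (-0.33) and CLSPN at 79.6 against 100.4 (-0.33). HELLS, DSCC1 and MCM5 were the highest, at 0.14, 0.07 and 0.06. CCNE2, below the level compared, was at 3.83 against 7.08 CPM in SOX2-positive cells, 3.88 against 6.72 in double-positive and 7.18 against 5.12 in MESP1-positive cells. The share of 5 in 38 is close to that of all genes.

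In CHIR no member passed these limits in any group. The percent of all genes higher and lower was 2.65 and 2.82 with MESP1, 1.91 and 2.12 with TBXT, and 2.39 and 2.82 with SOX2. In TBXT-positive cells of CHIR PRIM1 had the lowest ratio, -0.28, and UHRF1 the highest, 0.24. In SOX2-positive cells UBR7 was lowest at -0.23 and MCM5 highest at 0.15, and with MESP1 PRIM1 was at -0.31 and E2F8 at 0.27. In CHIR+Activin 1 member was higher with MESP1 (11.8%) and 0 lower (12.1%), 0 and 0 with TBXT (4.36% and 5.06%), and 0 and 1 with SOX2 (5.98% and 4.48%). Both of these were UHRF1, at 60.5 CPM against 45.1 in MESP1-positive cells (0.42, 0.26 to 0.59) and at 41.7 against 53.7 in SOX2-positive cells (-0.36, -0.44 to -0.29). PRIM1 was at -0.30 in TBXT-positive and 0.30 in SOX2-positive cells there, and UHRF1 at 0.29 with TBXT.

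E2F8, CLSPN, UHRF1 and SLBP, the compared members with the lowest ratios of CHIR to BMP4, were also set side by side within the same marker groups. This comparison was chosen after the values were seen. In CHIR and in CHIR+Activin 26 members lay below BMP4, and the others among them are not shown this way. In SOX2-positive cells E2F8 was at 12.7 CPM in BMP4, 11.2 in CHIR and 11.6 in CHIR+Activin, and in TBXT-positive cells at 19.0, 11.2 and 12.6 CPM. UHRF1 was at 42.3, 41.4 and 41.7 CPM with SOX2 and at 54.4, 43.8 and 50.2 CPM with TBXT. SLBP was at 55.1, 55.2 and 54.2 CPM with SOX2 and at 68.6, 55.9 and 58.7 CPM with TBXT. All 3 libraries thus lay close together in SOX2-positive cells for E2F8, UHRF1 and SLBP, and BMP4 stood highest in TBXT-positive cells. CLSPN was lowest in CHIR in both groups, at 79.6, 70.3 and 75.5 CPM with SOX2 and 98.7, 71.8 and 80.7 CPM with TBXT. Cells with a SOX2 UMI made up 16.7% of the BMP4 library, 64.0% of CHIR and 61.9% of the library with Activin. Whether these shares or the difference in depth bear on the library ratios was not tested.

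The stress share went with only small differences in the S phase share. Thinned cells were split at 7 and 11 UMIs of the stress list per 10000, cuts set over all 3 libraries, and the upper group took 58.5% of cells in CHIR, 33.1% in CHIR+Activin and 5.51% in BMP4. From the lower to the upper group the summed members were at 40.0, 40.1 and 39.4 per 10000 in BMP4, 40.8, 39.6 and 38.0 in CHIR, and 40.0, 39.3 and 39.0 in CHIR+Activin. In the lower group the 3 libraries lay at 40.0 to 40.8, with CHIR the highest.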

How the data were processed

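Per the file headers, the authors used Cell Ranger 8.0.1, and their deposited matrices give unnormalized UMI counts, for all barcodes in BMP4 and for called cells in the other libraries. Seurat is named in the submitters' processing notes without a role, and neither genome build nor annotation is given in the sources used here. The members, lists and marker groups were chosen with earlier results of these data known.

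Kept cells had at least 2000 genes and at most 15% mitochondrial UMIs. The BMP4 matrix held 1935344 barcodes, and 9440 with at least 3739 UMIs (10% of the 99th percentile of the 10000 largest) were taken as cells. The filters then removed 39, 622 and 515 barcodes. Doublets were kept, and removing the 6% of cells with the highest scores of a Scrublet-type procedure was an alternative.

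UMI sums over cells were divided by the library total (CPM). Intervals at 95% were exact Poisson or binomial for levels and conditional binomial for ratios. Genes at 10 CPM or more in either side of a comparison were compared, and 25% higher, 20% lower and 2-fold stood in for calls. Thinning drew 10000 UMIs per cell. A marker group is all cells with at least 1 UMI of each marker, and groups under 50 cells are given as a number only. Each role's most abundant member was named, with the 5 highest and 5 lowest ratios per pair of libraries, the 3 highest and lowest per marker group and along the G2 and mitosis share, and the 10 genes outside the lists most correlated with the sum. Python 3.11.15, numpy 2.4.6, scipy 1.17.1 and, for TMM scaling, edgeR 4.0.16 in R 4.3.3 were used, and the counting of calls was tested on simulated data. Other scalings, cell filters, equal weight of cells, leaving out NASP, a fold of 1.5 and stricter marker groups were tried. One gene outside the members that this rule names is not reported here.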

Additional observations from a re-analysis of the deposited data

Results flagged for a closer look

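MESP1-positive cells held a higher S phase share than the other cells in BMP4 (log2 ratio 0.0335) and a lower one in CHIR (-0.0651, from 131 cells), so the direction differed between libraries. TBXT-positive cells did likewise, with 0.0201 in BMP4 against -0.0287 in CHIR and -0.0304 in CHIR+Activin. Over depth groups the TBXT ratios were 0.0658, 0.00209 and 0.00286, all above 0, and with 2 or more TBXT UMIs the BMP4 ratio was -0.00614. The MESP1-positive cells of CHIR were deeper than the rest, with medians of 31390 against 22824 UMIs. In the deepest depth group, which held 66 of them, their ratio was -0.0307. The other depth groups held too few of them for a value. Neither difference between libraries was tested, since each treatment has 1 library.

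In BMP4 barcodes with fewer than 100 UMIs, which were not counted as cells, 33710 of 7268274 UMIs came from the S phase genes. That is 46.4 per 10000 UMIs (45.9 to 46.9), above the 39.9 in the kept cells. The G2 and mitosis list was at 75.5 per 10000 in these barcodes and 70.9 in the cells. Matrices of the other treatments hold called cells only, so no such value was computed there.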

How the results depend on the processing

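With 1 library per treatment no setting gives a replicate error. No paired analysis was possible because each treatment has 1 library. Of the values recomputed under alternatives, 100 stayed the same or moved little, 59 moved and 8 changed sign. The 100 include counts of members, which have no direction, and many of these counts were 0 throughout. They are therefore no measure of how stable the ratios are. The mean over depth groups was added after seeing the data. Cells under 10000 UMIs were left out of thinned values. The causes were not tested.

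The log2 ratio of summed members, CHIR over BMP4, was -0.0724 with equal weight of cells, -0.0576 without NASP, -0.0961 with TMM and -0.0844 with median-of-ratios scaling. CHIR+Activin over BMP4 gave -0.0554, -0.0588, -0.0138 and -0.0257 in that order and -0.0230 without mitochondrial and ribosomal protein genes in the total. CHIR+Activin over CHIR gave -0.00123 without NASP, 0.0823 with TMM, 0.0587 with median-of-ratios scaling and 0.0327 with the smaller total. Members at least 20% lower in CHIR than BMP4 were 5 with equal weight of cells or TMM and 1 at a fold of 1.5. In CHIR+Activin they were 2 with no filter on low levels. Thinned medians per cell were 39, 38 and 39.

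In BMP4 the ratio of TFAP2A-positive cells was -0.143 without likely doublets, -0.0991 without NASP, -0.0955 thinned, -0.190 with 2 or more UMIs, -0.285 in cells of 1 group and -0.0973 over depth groups. Double-positive cells gave -0.110 without NASP, -0.111 thinned, -0.00661 in 1 group and -0.111 over depth groups. MESP1 gave 0.0552 with equal weight, 0.0468 without NASP, 0.0531 thinned, 0.162 in 1 group and 0.0607 over depth groups. TBXT gave 0.0337, 0.0321, 0.0474, 0.0589 and 0.0658 in the same order, and -0.00614 with 2 or more UMIs. SOX2 gave -0.113 without NASP, -0.0708 thinned, -0.0235 in 1 group and -0.0430 over depth groups. In CHIR, SOX2 changed sign thinned (0.0239), in 1 group (0.00418) and over depth groups (0.0125), and TBXT over depth groups (0.00209). In CHIR+Activin TBXT (0.00286) and SOX2 (0.00493) changed sign over depth groups. Thinned groups were formed from thinned counts. MESP1 groups of CHIR and CHIR+Activin had under 50 cells in some of these settings and give no value there.

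With cells split in 4 by the G2 and mitosis share, the ratio of summed members was -0.438, -0.331 and -0.376 in BMP4, CHIR and CHIR+Activin, against -0.410, -0.301 and -0.343.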
